A study of Mus musculus with 6 samples.

Results

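The Myc, Max and Mxd network was examined in mouse embryonic stem cells whose coactivator p/CIP had been lowered by siRNA. Its members were chosen by gene symbol from general knowledge of the family: Myc, Mycn, Mycl, Max, Mxd1, Mxd3, Mxd4, Mnt and Mga, which makes 9 of the 19938 genes measured. Earlier results of these data were known when they were chosen. A member was taken where the platform annotation gave a probe set that symbol alone, and each of the 9 had 1 such probe set, so that no choice between probe sets was needed. The series held 6 expression arrays of total RNA from E14 cells, a mouse embryonic stem cell line, with 2 arrays in each of 3 groups. Cells were transfected with siRNA 1 against p/CIP, with siRNA 2 against p/CIP, or with a pool of non-specific siRNAs as control. The treatment notes speak of different p/CIP siRNAs but print the same number for both, so the siRNA groups rest on the sample titles. No genetic change and no other agent is named in the labels, and neither siRNA doses nor sequences nor the time between transfection and harvest are stated there. Nothing says that the 2 arrays of a group came from separate cultures, and the p-values therefore reflect the spread among these arrays, which may be technical. The question asked of the members was whether their transcripts depend on p/CIP.

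MYC proteins are transcription factors of the basic helix-loop-helix leucine zipper class that bind DNA only as dimers with MAX, and they activate genes of growth, ribosome production and metabolism. MXD proteins and MNT compete for MAX and for the same DNA element, and they repress by recruiting the SIN3 corepressor. MGA also pairs with MAX, as part of the Polycomb complex PRC1.6. In mouse embryonic stem cells Myc is a target of LIF and STAT3 signalling, Mycn can stand in for Myc in self-renewal, and loss of Max or Mga lets germline genes become active.

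The element that all these dimers read is the E-box, with the letters CACGTG, which read the same on both strands. It was searched for in RefSeq promoter windows of GRCm38.p6, which run from 250 bases before to 50 bases after a listed start. For Max and Mnt that start is not the outermost one that RefSeq's gene table gives. Of 32851 windows, 7.15% held it. A window was present for 8 of the 9 members, Myc being the other, and 3 of the 8 held an E-box: Max (chr12:76962226-76962271, minus strand), Mxd4 (chr5:34187904-34187949, minus strand) and Mnt (chr11:74830781-74830826, plus strand). Of the related network genes, Mlx (chr11:101087230-101087275, plus strand) and Mlxipl (chr5:135089772-135089817, plus strand) held one too. The 5 stretches are shown because they place the element of the network within its own genes. Each is given 5′ to 3′ on the strand of its gene, with the E-box in capitals.
Max: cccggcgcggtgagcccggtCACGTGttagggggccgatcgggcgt
Mxd4: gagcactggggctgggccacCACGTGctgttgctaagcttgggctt
Mnt: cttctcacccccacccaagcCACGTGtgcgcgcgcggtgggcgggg
Mlx: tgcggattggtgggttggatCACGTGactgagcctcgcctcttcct
Mlxipl: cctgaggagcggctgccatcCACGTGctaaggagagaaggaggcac
A match of letters describes these windows and is not evidence of binding, and no match says only that the letters are not in the window.

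The deposited values are taken as log2 signals, from their range of 2.69 to 14.59. The siRNAs lowered their target: Ncoa3, the gene of p/CIP, read 10.71 and 10.93 with siRNA 1, 10.71 and 10.92 with siRNA 2, and 12.33 and 12.28 with control siRNA. Its log2 change over both siRNAs was -1.49 (standard error 0.0964, adjusted p = 0.0287), lower on 4 of 4 knockdown arrays than on both control arrays. That is 35.6% of the control signal. The adjusted p rose to 0.62 or 0.248 when the first or the second control array was left out, and to 0.146 or 0.0969 when the first or the second array of siRNA 2 was. It was 0.366 in an unmoderated model and 0.166 with every probe set tested. Array siRNA 1 replicate 2 stood apart, with an interquartile range of 3.13 against 3.33 to 3.45 on the other 5 arrays. Of 10 markers of pluripotent cells, such as Pou5f1, Sox2 and Nanog, 10 lay above the median gene level of 7.81, and of 5 mesoderm markers, 0 did. In such bulk RNA, fewer cells of a type and less RNA per cell cannot be told apart.

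The mean of pluripotency markers lay apart between knockdown and control, although limma called none of them over both siRNAs. Taken gene by gene, arrays did not overlap for 2 of the 10, each lower. Of all genes this was so for 18.9%, with 10.1% lower. The mean of the 10 pluripotency markers was 11.93 to 12.05 on siRNA 1 arrays, 12.01 to 12.08 on siRNA 2 arrays and 12.12 to 12.16 on control arrays, with no overlap. Of the 10, 9 were below control, with a median log2 change of -0.095, and 2 had an unadjusted p under 0.05 (Nanog at -0.33 and Zfp42 at -0.39). Of all genes, 47.7% were below control and 8.72% had an unadjusted p under 0.05. All 10 markers lay above the median gene level, and among all genes above it 61.9% were below control, with a median of -0.031. The mean of 6 markers of the primed epiblast, a later state of pluripotency, was 9.64 to 9.68 on siRNA 1 arrays, 9.84 to 9.87 on siRNA 2 arrays and 9.47 to 9.51 on control arrays, again with no overlap. Of the 6, 5 were above control, with a median of 0.35. An unadjusted p under 0.05 was found for 5, of which 4 were higher, against 8.72% and 3.86% of all genes. The signalling gene Fgf5 was at 0.67 (adjusted p = 0.0530). With the replicate number as a block 1 of the 6 was called, where 0.341% of all genes passed.

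Means of 6 neural markers also lay below both control arrays on every knockdown array, at 7.87 to 7.95 on siRNA 1 arrays and 7.89 to 7.95 on siRNA 2 arrays, against 8.01 on both control arrays. The largest change among them was that of Tubb3, at -0.32 over both siRNAs. Pax6 was at -0.14, Zfp521 at -0.069, Sox1 at -0.0092, Neurog2 at -0.0070 and Nes at 0.012. Means of 8 trophoblast markers were 9.28 to 9.37 on siRNA 1 arrays, 9.09 to 9.22 on siRNA 2 arrays and 9.08 to 9.12 on control arrays, so that only the siRNA 1 arrays lay apart. Means of 8 fibroblast markers lay on both sides of the control arrays with siRNA 1, at 7.79 and 7.95. With siRNA 2 the fibroblast means lay above both control arrays, from 7.89 upward against 7.80 to 7.83. Extraembryonic endoderm and mesoderm markers overlapped between knockdown and control. For the 8 extraembryonic endoderm markers the means were 7.91 to 8.46 with siRNA 1 and 7.93 to 8.16 with siRNA 2. On control arrays they were 7.79 to 8.14. The part of these markers in the results below was not tested.

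No change of any of the 9 members was detected after either siRNA. By limma, with Benjamini-Hochberg adjustment over all 19938 genes, 0 of the 9 passed an adjusted p of 0.05 for both siRNAs together, where 0.0702% of all genes did. Likewise 0 passed for siRNA 1, where 0.0702% of all genes did, and 0 for siRNA 2 and between the siRNAs, where 0% did. At an unadjusted p under 0.05 the count of members was 0 in each of the 4 comparisons, against 8.72%, 12.1%, 5.25% and 6.90% of all genes. An unmoderated linear model and the fit with the replicate number as a block also called 0 members in each.

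**Figure D1:**
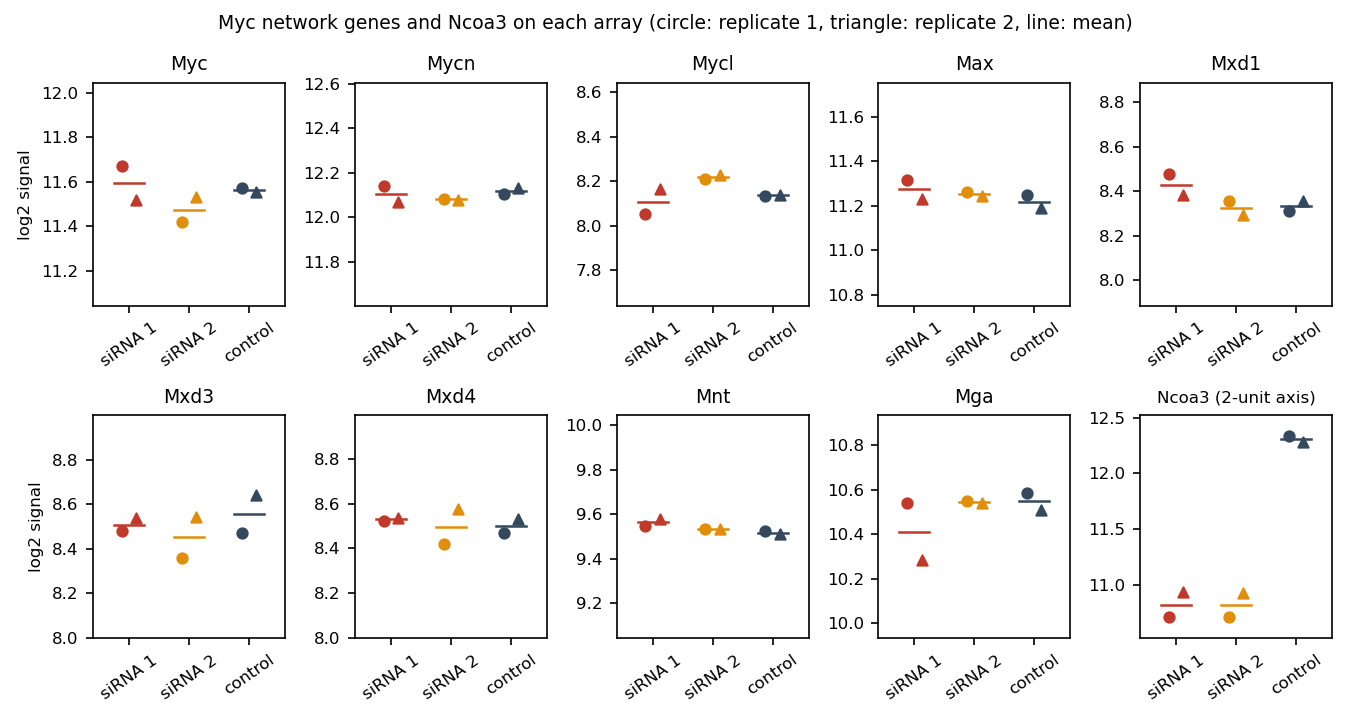
Log2 signal of the 9 network genes and of Ncoa3 on each array, in 1 panel per gene, by group (siRNA 1, siRNA 2, control siRNA). Circles are replicate 1, triangles replicate 2 and lines group means; each network panel spans 1 log2 unit and the Ncoa3 panel 2. Network genes sit within 0.303 log2 units over the 6 arrays, while the knockdown arrays of Ncoa3 lie far below its controls.

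Of the activators, Myc itself, the founding member and a driver of growth and self-renewal, read 11.67 and 11.52 with siRNA 1, 11.42 and 11.53 with siRNA 2, and 11.57 and 11.55 with control siRNA (probe set 10424400). The siRNA 1 arrays lay on both sides of the control arrays, while both siRNA 2 arrays lay just below them. The log2 change of Myc was -0.028 (standard error 0.0776, 95% interval -0.21 to 0.16, adjusted p = 0.931) over both siRNAs, 0.032 (standard error 0.0896, 95% interval -0.18 to 0.24, adjusted p = 0.888) for siRNA 1 and -0.087 (standard error 0.0896, 95% interval -0.30 to 0.13, adjusted p = 0.999) for siRNA 2. The order of group means was siRNA 1, control and siRNA 2 from high to low. Neighbours in that order did not pass the test, and the SD between arrays was 0.105 with siRNA 1, 0.0799 with siRNA 2 and 0.0139 in the control (n = 2 each).

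Mycn, the N-Myc gene of early embryonic and neural progenitor cells, read 12.14 and 12.07 with siRNA 1, 12.08 and 12.08 with siRNA 2, and 12.11 and 12.13 with control siRNA (probe set 10399421). The 6 values spanned 0.0708, with both siRNA 2 arrays below both control arrays. Over both siRNAs its log2 change came to -0.027 (standard error 0.0664, 95% interval -0.18 to 0.13, adjusted p = 0.924), with -0.015 (95% interval -0.20 to 0.17, adjusted p = 0.941) for siRNA 1 and -0.038 (95% interval -0.22 to 0.14, adjusted p = 0.999) for siRNA 2. Mycl, the L-Myc gene, read 8.05 and 8.16 with siRNA 1, 8.21 and 8.23 with siRNA 2, and 8.13 and 8.14 with control siRNA (probe set 10507798). Here both siRNA 2 arrays lay above the control arrays and the siRNA 1 arrays on both sides of them. The log2 change of Mycl was 0.027 (standard error 0.0691, 95% interval -0.14 to 0.19, adjusted p = 0.927) over both siRNAs, -0.028 (95% interval -0.22 to 0.16, adjusted p = 0.888) for siRNA 1 and 0.081 (95% interval -0.11 to 0.27, adjusted p = 0.999) for siRNA 2.

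Max, the shared partner without which MYC does not bind DNA, read 11.31 and 11.23 with siRNA 1, 11.26 and 11.24 with siRNA 2, and 11.25 and 11.19 with control siRNA (probe set 10401128). The groups overlapped, and the 6 values spanned 0.125. For Max the log2 change was 0.045 (standard error 0.0683, 95% interval -0.12 to 0.21, adjusted p = 0.862) over both siRNAs, 0.055 (95% interval -0.13 to 0.24, adjusted p = 0.767) for siRNA 1 and 0.034 (95% interval -0.15 to 0.22, adjusted p = 0.999) for siRNA 2.

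Among the MAX-binding repressors, Mxd1, which rises in cells that leave the cycle to differentiate, read 8.48 and 8.38 with siRNA 1, 8.36 and 8.29 with siRNA 2, and 8.31 and 8.35 with control siRNA (probe set 10545921). Both siRNA 1 arrays lay above the controls, and the siRNA 2 arrays overlapped them. Its log2 change was 0.046 (standard error 0.0703, 95% interval -0.12 to 0.21, adjusted p = 0.863) over both siRNAs, 0.098 (95% interval -0.095 to 0.29, adjusted p = 0.606) for siRNA 1 and -0.0061 (95% interval -0.20 to 0.19, adjusted p = 0.999) for siRNA 2. Mxd3, the member found in dividing cells in S phase, read 8.48 and 8.54 with siRNA 1, 8.36 and 8.54 with siRNA 2, and 8.47 and 8.64 with control siRNA (probe set 10409424). Within each group replicate 2 was the higher array, and the knockdown groups overlapped the control. The log2 change of Mxd3 was -0.075 (standard error 0.0882, 95% interval -0.28 to 0.13, adjusted p = 0.817) over both siRNAs, the member with the smallest p in that comparison; without control siRNA replicate 1 it was -0.16 and without control siRNA replicate 2 it was 0.010. With siRNA 1 it was -0.046 (95% interval -0.29 to 0.20, adjusted p = 0.853) and with siRNA 2 -0.10 (95% interval -0.35 to 0.14, adjusted p = 0.999).

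Mxd4, a further MXD repressor, read 8.52 and 8.54 with siRNA 1, 8.42 and 8.58 with siRNA 2, and 8.47 and 8.53 with control siRNA (probe set 10529375), with overlap in both comparisons with control. For Mxd4 the log2 change was 0.014 (standard error 0.0752, 95% interval -0.16 to 0.19, adjusted p = 0.967) over both siRNAs, 0.030 (standard error 0.0868) for siRNA 1 and -0.0022 (standard error 0.0868) for siRNA 2. Mnt, the broadly expressed repressor that also pairs with MLX, read 9.55 and 9.58 with siRNA 1, 9.53 and 9.54 with siRNA 2, and 9.53 and 9.51 with control siRNA (probe set 10378497). It was the only member whose 4 knockdown arrays all lay above both control arrays, with a change smaller than its standard error. Its log2 change was 0.031 (standard error 0.0645, 95% interval -0.12 to 0.18, adjusted p = 0.906) over both siRNAs, 0.045 (standard error 0.0745) for siRNA 1 and 0.017 (standard error 0.0745) for siRNA 2.

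Mga, which carries a T-box as well as the MAX-binding domain, read 10.54 and 10.28 with siRNA 1, 10.55 and 10.54 with siRNA 2, and 10.59 and 10.51 with control siRNA (probe set 10475051). A single array, siRNA 1 replicate 2, was low, and the other 5 lay within 0.075 of each other. This is the array with the narrower range of signals. The log2 change of Mga was -0.070 (standard error 0.0898, 95% interval -0.28 to 0.14, adjusted p = 0.832) over both siRNAs, -0.14 (standard error 0.104, 95% interval -0.38 to 0.11, adjusted p = 0.580) for siRNA 1 and -0.0040 (standard error 0.104, 95% interval -0.25 to 0.24, adjusted p = 0.999) for siRNA 2. For siRNA 1 it was -0.0073 without replicate 2 of that siRNA and -0.27 without replicate 1.

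**Figure D2:**
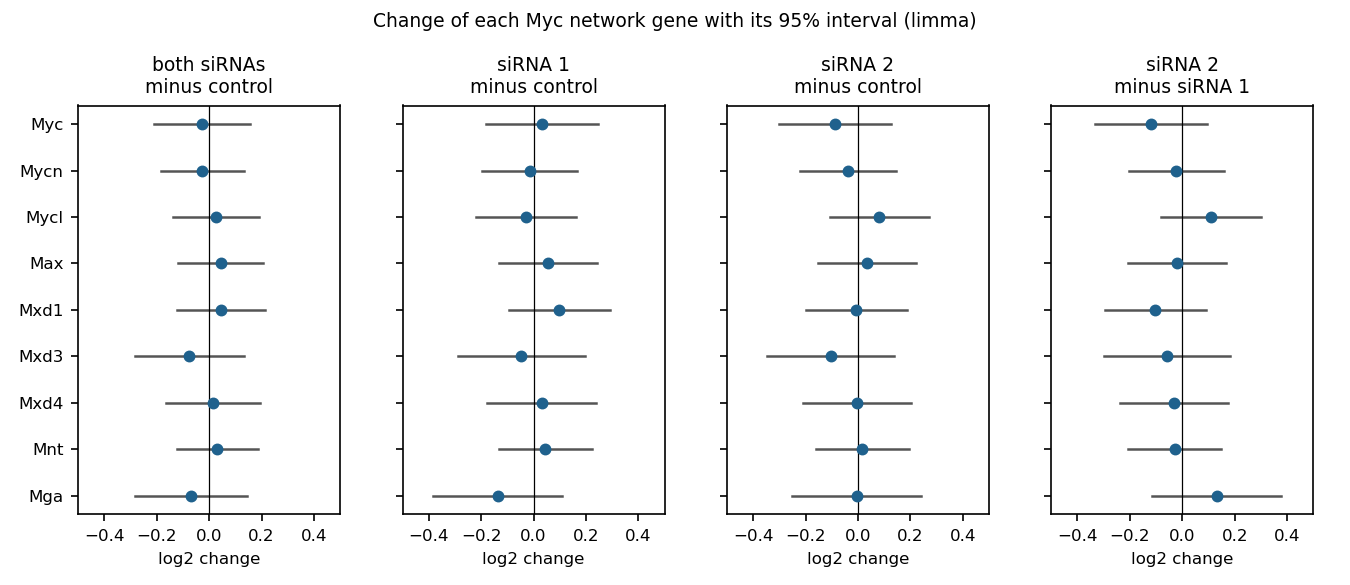
Log2 change of each of the 9 network genes with its 95% interval from limma, in 4 panels (both siRNAs, siRNA 1 and siRNA 2, each minus control siRNA, and siRNA 2 minus siRNA 1). Every interval holds 0, and the ends farthest from 0 in the first panel, those of Mxd3 and Mga, lie at -0.28.

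The size of change within the 95% intervals of these arrays was small. The intervals reflect the spread among these arrays, which may be technical, and may not cover variation between cultures. Over both siRNAs, the 95% intervals of all 9 members held 0, and the ends farthest from 0 corresponded to between 1.14-fold (Mnt) and 1.22-fold (Mxd3). For Myc that end was 1.16-fold, for Mycn 1.14-fold and for Max 1.15-fold. With a single siRNA the widest end was 1.30-fold, for Mga with siRNA 1, and 1.27-fold, for Mxd3 with siRNA 2. Each interval covers 1 gene at 95% and is not adjusted for the number of genes. The comparisons of the siRNAs with control share the control arrays, so they are not independent of each other.

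The median size of a log2 change over both siRNAs, sign removed, was 0.031 over the 9 members and 0.080 over all genes. The largest among the members, that of Mxd3 at 0.075, was exceeded by 52.4% of all genes. The median standard error was 0.0703 over the members and 0.0861 over all genes. Arrays did not overlap between knockdown and control for 1 of the 9 members over both siRNAs, against 18.9% of all genes. For siRNA 1 this was so for 2 members (Mxd1 and Mnt, both higher), against 43.4% of all genes, of which 22.9% were higher, and for siRNA 2 for 4 members (Mycl and Mnt higher, Myc and Mycn lower), against 35.8%.

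Between the siRNAs, no member differed by a detectable amount. The log2 difference of siRNA 2 minus siRNA 1 was 0.13 (standard error 0.104, 95% interval -0.11 to 0.38, adjusted p = 0.765) for Mga, -0.12 (standard error 0.0896, 95% interval -0.33 to 0.094, adjusted p = 0.758) for Myc, 0.11 (standard error 0.0798, 95% interval -0.080 to 0.30, adjusted p = 0.753) for Mycl and -0.10 (standard error 0.0811, 95% interval -0.30 to 0.089, adjusted p = 0.765) for Mxd1. The other 5 members lay between -0.058 and -0.021. Arrays of the siRNAs did not overlap for Mycl, Mxd1 and Mnt, or 3 of the 9, against 35.1% of all genes.

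The genes around the network were described from 8 lists of general knowledge of MYC biology, also chosen with earlier results of these data known. Their counts and medians stand beside those of all genes, of which 47.7% lay below control with a median log2 change of 0.0065 over both siRNAs. In the parallel branch, 0 of 4 genes were called. Mlx, the MAX-like partner of the glucose-sensing factors, read 11.03 and 11.05 with siRNA 1, 11.13 and 11.03 with siRNA 2, and 11.30 and 11.19 with control siRNA. All 4 knockdown arrays lay below both control arrays, and its log2 change of -0.19 (standard error 0.0732, 95% interval -0.36 to -0.012, adjusted p = 0.546) did not pass. Mxi1, an MXD relative, was at -0.15 (standard error 0.0772, 95% interval -0.33 to 0.032, adjusted p = 0.629), also without overlap. Mlxip (MondoA) was at 0.011 and Mlxipl (ChREBP) at -0.0040.

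Of 24 measured MYC cofactors and regulators of MYC stability, 0 were called over both siRNAs, 1 had an unadjusted p under 0.05, 17 lay below control and the median log2 change was -0.043. The smallest p was that of Wdr5, the histone methyltransferase subunit that binds MYC on chromatin, which read 11.19 and 11.08 with siRNA 1, 11.11 and 11.19 with siRNA 2, and 11.46 and 11.35 with control siRNA. The knockdown arrays lay below both control arrays with a log2 change of -0.27 (standard error 0.0762, 95% interval -0.45 to -0.085, adjusted p = 0.375). Cip2a, which protects MYC from a phosphatase, was at -0.23, the ATPase gene Ruvbl1 at -0.19 and the MYC-phosphorylating kinase gene Gsk3b at -0.13, with adjusted p between 0.595 and 0.651. After quantile normalization the list's median was -0.0024, with 12 of 24 below control.

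In the SIN3 corepressor that MXD proteins recruit, 0 of 10 measured genes were called over both siRNAs, and 1 had an unadjusted p under 0.05. The median was -0.022, but 0.022 after quantile normalization, 0.012 without siRNA 1 replicate 2 and 0.011 without control siRNA replicate 1. Its scaffold gene Sin3b read 10.16 and 10.17 with siRNA 1, 10.05 and 10.09 with siRNA 2, and 9.95 and 9.87 with control siRNA, higher on each knockdown array than on both control arrays, with a log2 change of 0.21 (standard error 0.0676, 95% interval 0.049 to 0.37, adjusted p = 0.442). Sap30 was at -0.20, Brms1 at -0.10 and Rbbp7 at 0.090, with -0.0060 on a second, dimmer probe set of Rbbp7.

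In the PRC1.6 complex of Mga, 0 of 14 genes were called in any of the 4 comparisons (median -0.030 over both siRNAs, and 0.0093 after quantile normalization). Over both siRNAs 2 had an unadjusted p under 0.05. Cbx3, the heterochromatin protein HP1 gamma, read 10.76 and 10.46 with siRNA 1, 11.41 and 11.36 with siRNA 2, and 11.29 and 11.28 with control siRNA. The siRNA 1 arrays lay below all others, while the siRNA 2 arrays lay just above the controls. With siRNA 1 its log2 change was -0.68 (standard error 0.110, 95% interval -0.94 to -0.42, adjusted p = 0.124), and the adjusted p was 0.0391 with the replicate block, under which 1.21% of all genes passed. With siRNA 2 it was 0.10 (95% interval -0.16 to 0.36, adjusted p = 0.999), and the difference of siRNA 2 minus siRNA 1 was 0.78 (adjusted p = 0.241, and 0.0749 with the block). The symbol is held by 7 probe sets, whose log2 changes ran from -0.70 to -0.54 with siRNA 1, and signal from near-identical copies cannot be told apart there. Pcgf6, the subunit that defines the complex, was at -0.15 over both siRNAs and Yaf2 at 0.13; Wdr5, described above, belongs to this list too.

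Of the 21 germline genes that are known to become active when Max or Mga is lost, 0 were called over both siRNAs, 1 had an unadjusted p under 0.05, 12 lay below control and 9 above, and the median was -0.026. The sign of that median rested on single arrays. It was 0.054 without control siRNA replicate 1 (5 below), 0.070 without siRNA 1 replicate 2 (9 below) and 0.044 without siRNA 2 replicate 2 (8 below). The E-box was frequent in this list: 12 of the 19 with a promoter window held CACGTG, against 9.50% of 15614 genes on the array with a window. The stretches of Tdrd1 (chr19:56826178-56826223, plus strand), Sycp3 (chr10:88459503-88459548, plus strand, the first of 2 elements) and Stag3 (chr5:138280319-138280364, plus strand) are shown because these are the list's genes of smallest p that hold it, again with the E-box in capitals.
Tdrd1: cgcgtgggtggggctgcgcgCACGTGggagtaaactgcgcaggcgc
Sycp3: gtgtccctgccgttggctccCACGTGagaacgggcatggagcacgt
Stag3: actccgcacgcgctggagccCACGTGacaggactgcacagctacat
The median log2 change over both siRNAs was -0.027 for the 12 with an E-box and -0.039 for the other 7.

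Tdrd1, a Tudor protein of the piRNA pathway, had the smallest p among them and read 7.65 and 7.38 with siRNA 1, 7.34 and 7.50 with siRNA 2, and 7.11 and 7.23 with control siRNA. The knockdown arrays lay above both controls, and the log2 change of 0.30 (standard error 0.101, 95% interval 0.060 to 0.54, adjusted p = 0.477) did not pass. Tex11, a meiotic gene with a low mean signal of 4.97, was at 0.26. Sycp3, which encodes a protein of the synaptonemal complex, read 7.83 and 6.99 with siRNA 1, 8.56 and 8.15 with siRNA 2, and 8.75 and 8.05 with control siRNA, so that the replicates of every group lay far apart. With siRNA 1 its log2 change was -0.99 (standard error 0.324, 95% interval -1.76 to -0.22, adjusted p = 0.335), and the adjusted p was 0.0304 with the replicate block. With siRNA 2 it was -0.047. The cohesin gene Stag3 was at -0.17 over both siRNAs. The T-box half-site, with the letters TCACACCT on either strand, was held by 0 of the 8 members and 1 of the 19 germline genes, Sycp3, against 1.31% of all genes with a window.

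**Figure D3:**
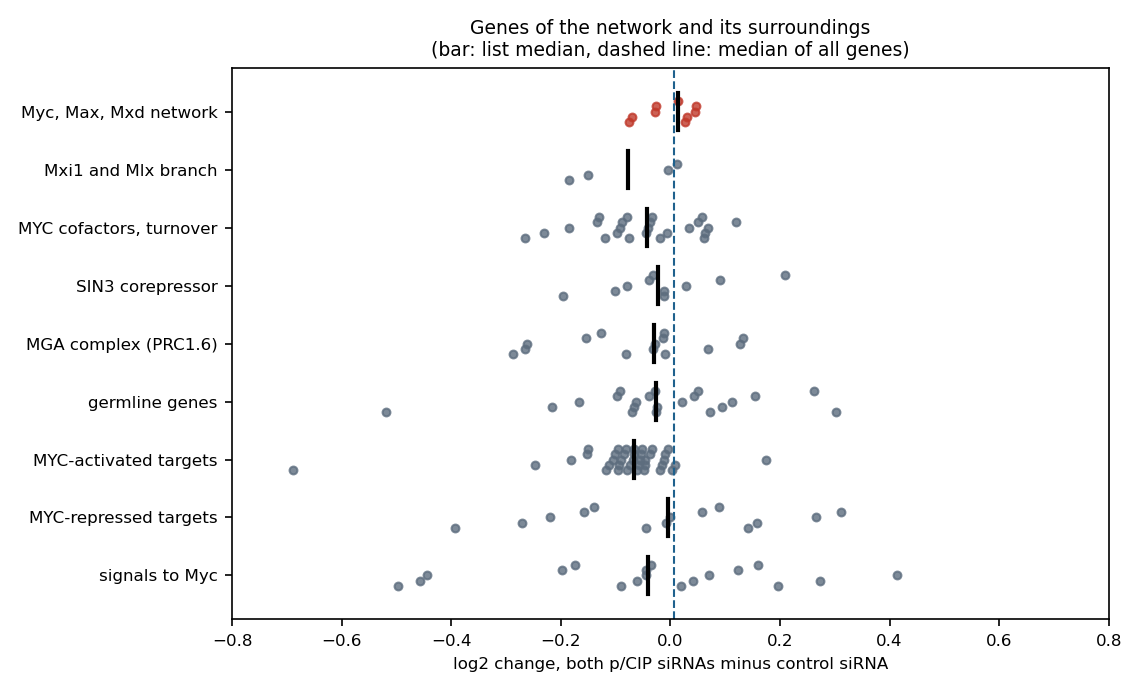
Log2 change of each measured gene, both p/CIP siRNAs minus control siRNA, for the 9 network genes (top row, red) and 8 lists of related genes (rows below). Points are genes, black bars are list medians and the dashed line is the median of all genes; the network genes lie between -0.075 and 0.046, and MYC-activated targets sit mostly left of 0 around a median of -0.066.

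Of 38 measured targets that MYC is known to activate, 0 were called over both siRNAs, and 2 had an unadjusted p under 0.05, 1 in each direction, against 8.72% of all genes. The log2 change was under 0 for 35 of them, with a median of -0.066. All 38 had a mean signal above the median gene level, and among all genes above it 61.9% were below control, with a median of -0.031. The list was not tested against other genes of like signal. Its count below 0 was 27 of 38 after quantile normalization (median -0.025) and 29 of 38 after cyclic loess (-0.029). It was 27 of 38 without control siRNA replicate 1 (-0.028) and 33 of 38 without siRNA 1 replicate 2 (-0.036). For siRNA 1 it was 35 of 38 (-0.096), and for siRNA 2 it was 30 of 38 (-0.040). Among all genes above the median level, 61.6% were below control for siRNA 1 and 58.4% for siRNA 2. The siRNA 1 count was 27 of 38 without siRNA 1 replicate 2 (-0.033) and 28 of 38 without control siRNA replicate 1 (-0.049). After quantile normalization it was 26 of 38 (-0.043). For siRNA 2 the direction rested on single arrays, with 16 of 38 below without siRNA 2 replicate 2 (0.012) and 19 of 38 without control siRNA replicate 1.

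Arrays of knockdown and control did not overlap for 5 of the 38 that were lower and 1 that was higher, against 10.1% and 8.83% of all genes. Cyclin D2 (Ccnd2), which drives the G1 phase, had the largest change in the list and read 9.07 and 9.39 with siRNA 1, 9.06 and 9.29 with siRNA 2, and 9.77 and 10.02 with control siRNA. Every knockdown array lay below both controls. Its log2 change was -0.69 (standard error 0.128, 95% interval -0.99 to -0.39, adjusted p = 0.186) over both siRNAs, and with the replicate block it was called lower at an adjusted p of 0.0197, where 0.341% of all genes passed. With the block it passed for each siRNA too, at -0.66 (0.0242) for siRNA 1 and -0.72 (0.0480) for siRNA 2. The pyrimidine synthesis gene Cad lay above control on all 4 knockdown arrays, at 11.50 and 11.50 with siRNA 1, 11.42 and 11.41 with siRNA 2, and 11.21 and 11.36 with control siRNA, with a log2 change of 0.17 (standard error 0.0736, adjusted p = 0.573). Polr1b, a subunit of RNA polymerase I, was at -0.18, and Tfb2m, a mitochondrial transcription factor, at -0.25 on each of its 2 probe sets. An E-box was held by 8 of the 31 list genes with a promoter window, against 9.50% of 15614 genes on the array with a window. The list's median log2 change was -0.088 with an E-box and -0.066 without. Over all genes it was -0.014 in 1483 with and 0.0074 in 14131 without.

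Of 14 measured genes that MYC is known to repress, 0 were called, 8 lay below and 6 above control over both siRNAs, and the median was -0.0047. At an unadjusted p under 0.05 there were 4. The list had no stable direction: 6 of 14 lay below control after quantile normalization (median 0.035) and 4 of 14 without siRNA 1 replicate 1 (0.022). The median was also above 0 without either siRNA 2 array (0.016 and 0.011) or without control siRNA replicate 2 (0.020). For siRNA 1, 9 of 14 lay below control (-0.044), and for siRNA 2, 5 of 14 (0.033). Txnip, an inhibitor of thioredoxin and of glucose uptake that MYC and MondoA control in opposite directions, read 11.67 and 11.54 with siRNA 1, 11.51 and 11.60 with siRNA 2, and 11.29 and 11.24 with control siRNA. It was higher on all 4 knockdown arrays with a log2 change of 0.31 (standard error 0.0746, 95% interval 0.13 to 0.49, adjusted p = 0.287). Hes1, a Notch effector, read 8.54 and 8.51 with siRNA 1, 8.62 and 8.57 with siRNA 2, and 9.16 and 8.74 with control siRNA, lower on all 4 with a log2 change of -0.39 (standard error 0.118, 95% interval -0.67 to -0.11, adjusted p = 0.398). The differentiation factor Cebpa was at 0.27 and the growth arrest gene Gadd45a at -0.22. Thbs1, the matrix protein thrombospondin 1, chosen after its values were seen, was at -0.69 with siRNA 1 (adjusted p = 0.356, and 0.0309 with the block) and at 0.41 with siRNA 2. The difference of siRNA 2 minus siRNA 1 was 1.10 (adjusted p = 0.446, and 0.0451 with the block, which called 0.0752% of all genes in that comparison).

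Of 18 measured genes of the signals that act on Myc in embryonic stem cells, 0 were called over both siRNAs, 10 lay below and 8 above control, and the median was -0.040. That median was -0.00040 after quantile normalization, -0.00023 after cyclic loess and 0.0046 without control siRNA replicate 1. At an unadjusted p under 0.05 there were 7 of 18, against 8.72% of all genes. Of the 7, 5 were lower and 2 higher, against 4.86% and 3.86% of all genes. Lifr, the receptor of LIF upstream of STAT3, read 9.62 and 9.44 with siRNA 1, 9.48 and 9.44 with siRNA 2, and 9.96 and 9.95 with control siRNA. The knockdown arrays lay below both controls, with a log2 change of -0.46 (standard error 0.0763, 95% interval -0.64 to -0.28, adjusted p = 0.161), and the adjusted p was 0.0612 with the block. Esrrb, a nuclear receptor gene of the pluripotency network, was at -0.50 (standard error 0.0900, 95% interval -0.71 to -0.28, adjusted p = 0.186), and with the block it was called lower at an adjusted p of 0.0386, as it was at 0.038 in limma with a trended, robust variance. With siRNA 1 alone it was at -0.49, with an adjusted p of 0.193, and 0.0384 with the block. Nr5a2 was at -0.44 (standard error 0.134, adjusted p = 0.400). Lef1, an effector of WNT signalling that is also among the 6 primed epiblast markers above, read 10.31 and 10.20 with siRNA 1, 10.30 and 10.22 with siRNA 2, and 9.80 and 9.89 with control siRNA, higher on all 4 knockdown arrays with a log2 change of 0.41 (standard error 0.0748, 95% interval 0.24 to 0.59, adjusted p = 0.186). On the same arrays the signal of Myc itself overlapped between siRNA 1 and control, while both siRNA 2 arrays lay just below the controls, as described above. A link between these genes and Myc was not tested.

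For the genes of most similar pattern, Pearson's r over the 6 arrays was taken against 1248 candidates, those with a mean above the median gene level and a range of at least 0.5. All points come from the same 6 arrays in 3 groups, so r describes these arrays only. For Myc the highest were Ciao3 (0.891), Pros1 (0.879), Itga8 (0.782), H2bc4 (0.768) and Klhl42 (0.759), and 0 candidates were over 0.9. For Mxd3, the member of smallest p over both siRNAs, they were Rab11fip5 (0.931), Snord14e (0.909), Cnpy1 (0.89), Set (0.886) and Cmtm7 (0.877). The log2 changes of these 10 genes over both siRNAs lay between -0.37 and 0.031, and none passed.

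For Myc, Mycn, Max, Mxd3, Mxd4 and Mga, the replicates of at least 1 group lay farther apart than the means of any pair of groups. Replicate 2 minus replicate 1 of Mxd3 was 0.061 with siRNA 1, 0.18 with siRNA 2 and 0.17 in the control, and of Mga it was -0.26, -0.011 and -0.075. For Myc these differences were -0.15, 0.11 and -0.020, with no common sign. The sign was shared by all 3 groups for 5 of the 9 members (Mycl, Max, Mxd3, Mxd4 and Mga), against 49.9% of all genes.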

How the data were processed

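Total RNA of 6 samples was measured on arrays, and the authors deposited 1 log2 value for each of 35556 probe sets; the log base was inferred from the values. Partek was used, per the submitters' processing notes, while no source used here gives its version or how background, probe summaries and normalization were handled. GEO's platform annotation gave 21789 probe sets 1 symbol and 1621 several, and did not list 12146. The brightest probe set stood for each of 19938 genes. No background values were used, so whether a low signal lies above background is not known here. The number of arrays limits the precision.

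All 3 groups were fitted together in limma 3.58.1 (R 4.3.3; lmFit, eBayes, two-sided), with 3 residual and 3.84 prior degrees of freedom, and the code was tested on simulated data. Members and lists were chosen with earlier results of these data known, so list counts are no independent evidence. Named were the 9 members, Ncoa3, the Mlx branch, up to 4 genes of smallest p per list and 5 genes of like pattern for 2 members. Same-numbered arrays deviated together (correlations across genes 0.461, 0.464 and 0.407), so the replicate number was taken to pair arrays, which the labels do not state; the fit without that block is the main one, and the block is given where it changes a call. Alternatives covered normalization, filters, probe set choice, variance model and each array left out. List genes with no probe set of their own symbol were left out, and promoters came from RefSeq (GRCm38.p6).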

Additional observations from a re-analysis of the deposited data

How the results depend on the processing

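The 9 members were refitted under 15 alternatives for both siRNAs and 16 for each other comparison, as the fit to only the groups compared cannot be made where all arrays are compared. Each of these called 0 members. Directions of members this close to 0 were not stable, and the cause was not tested. Over both siRNAs, quantile normalization gave a log2 change of 0.012 for Myc, 0.020 for Mycn, 0.016 for Mlxipl, 0.0054 for Itga8, 0.0025 for Snord14e and 0.010 for Set. Cyclic loess gave 0.013 for Myc, 0.014 for Mycn, 0.0071 for Mlxipl, 0.0059 for Snord14e and 0.0092 for Set. For siRNA 1, Mycn was at 0.046 by quantile normalization and 0.041 by cyclic loess. For siRNA 2, quantile normalization, cyclic loess and aligned array medians gave 0.014, 0.0056 and 0.0058 for Mxd1, 0.012, 0.011 and 0.0096 for Mxd4, and 0.0050, 0.020 and 0.0079 for Mga. Between the siRNAs, aligned medians gave 0.0033 for Mycn and 0.0053 for Max.

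With 1 array left out in turn, where the lone array of a group is assumed to vary like the others, log2 changes over both siRNAs ran from -0.065 to 0.0095 for Myc, -0.00078 to 0.054 for Mycl, -0.16 to 0.010 for Mxd3, -0.025 to 0.053 for Mxd4, -0.0034 to 0.026 for Mlxip, -0.11 to 0.097 for Mlxipl, -0.085 to 0.016 for Itga8, -0.092 to 0.15 for Pros1, -0.25 to 0.0098 for Rab11fip5, -0.25 to 0.18 for Snord14e and -0.22 to 0.19 for Set. For siRNA 1 they ran from -0.042 to 0.11 for Myc, -0.051 to 0.020 for Mycn, -0.083 to 0.027 for Mycl, -0.13 to 0.039 for Mxd3 and -0.0025 to 0.063 for Mxd4. For siRNA 2 they ran from -0.038 to 0.025 for Mxd1, -0.080 to 0.075 for Mxd4 and -0.042 to 0.034 for Mga, and for siRNA 2 minus siRNA 1 from -0.058 to 0.013 for Mycn, -0.062 to 0.020 for Max, -0.15 to 0.034 for Mxd3 and -0.11 to 0.045 for Mxd4. The lowest adjusted p of a member in any alternative was 0.128, for Mga with siRNA 1 (-0.27) without siRNA 1 replicate 1.

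With the replicate block, 0 of the 9 members were called in each comparison, and all genes called numbered 68 over both siRNAs against 14 without it. Ncoa3 with siRNA 2 (-1.49) had an adjusted p of 0.0742 without the block and 0.0480 with it. Beyond the calls given for Cbx3, Sycp3, Ccnd2, Thbs1 and Esrrb, the block changed no other call of a member or list gene. Among the cell type markers, the block called 1 of 6 primed epiblast markers higher over both siRNAs and 1 with siRNA 2. It also called 1 of 10 pluripotency markers lower with siRNA 1. Without the block 0 of these markers were called. With it, 0.341% of all genes passed over both siRNAs, 0.130% for siRNA 2 and 1.21% for siRNA 1. With 2 arrays a group, changes within the intervals given could not be detected. Larger changes could go uncalled too: Ccnd2, at -0.69 over both siRNAs, had an adjusted p of 0.186 in the main limma fit.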
